A study of Drosophila melanogaster with 12 samples.

Results

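Cytochrome P450 genes encode heme-bound monooxygenases, and they were taken here as the genes whose FlyBase symbol begins with Cyp and a digit. Of 17807 gene IDs in the deposited tables, 86 had such a symbol. Cyp1 and Cyp40 are cyclophilins that share the prefix, so they were set aside, which left 84 P450 genes. They fall into 20 families and 45 subfamilies by symbol, and 29 of the subfamilies have 1 gene. The Cyp6 family has 24 genes, Cyp4 has 22, Cyp12 has 7, Cyp9 and Cyp313 have 6 each and Cyp28 has 4. The P450 enzymes of ecdysone synthesis carry names of their own (spo, spok, phtm, dib, sad and shd), so the symbol does not pick them and they are described separately. A further annotated gene, Cyp6a21, was not analysed here.

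The data are 12 libraries of polyadenylated RNA from L3 larvae (the last stage before pupation) kept at 25 °C, and they make 4 groups of 3. The groups are salivary glands labelled egg_1473; Su(var)3-9_06, salivary glands labelled OregonR, wing imaginal discs labelled egg_1473; Su(var)3-9_06 and wing imaginal discs labelled OregonR. The first label of each tissue stands for double mutants of egg (SetDB1) and Su(var)3-9, which both encode histone H3 lysine methyltransferases of heterochromatin, and OregonR is a wild-type stock. Each library came from 25 glands or 25 pairs of discs. The labels name no shared genetic background for the mutant and OregonR larvae, so the mutations and the strain cannot be told apart. They mention technical replicates and say nothing of separate animals per library, so p-values measure the spread between these libraries, which may be technical. Gland RNA went through a second round of oligo-dT enrichment that disc RNA did not, so tissue and preparation cannot be told apart.

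P450 enzymes take electrons from a reductase and insert an oxygen atom into lipids, hormones and foreign compounds. In insects, enzymes of the CYP3 and CYP4 clans include many that act on plant toxins and insecticides, with fat body, gut and Malpighian tubules as their best known sites, while the CYP2 and mitochondrial clans include the enzymes of steroid hormone metabolism. Neither the salivary gland nor the wing disc is a classical detoxifying organ. By symbol, 39 of the 84 genes belong to the CYP3 clan, 32 to the CYP4 clan, 9 to the mitochondrial clan and 4 to the CYP2 clan. The genes lie close together in the genome: 48 of them form 17 groups with gaps of at most 20 kb, and 34 lie on chromosome arm 2R (BDGP6 assembly, Ensembl annotation release 115).

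The libraries held 17418224 to 57591665 gene counts, and CPM is a count scaled by depth and by edgeR's TMM factor, so it can differ from plain counts over depth. Among counts of 1 to 10 a share of 70.4% to 74.7% was even, and how many fragments stand behind a low count was not tested. Scaled over all 12 libraries, salivary gland markers summed to 574189 to 616083 CPM in mutant-labelled glands and 459890 to 505856 CPM in control glands, against 2509 to 2840 CPM in mutant-labelled discs and 2571 to 3989 CPM in control discs. Wing disc markers summed to 1440 to 1707 CPM in mutant-labelled discs and 1820 to 1922 CPM in control discs, against 92.9 to 155 CPM in glands. Su(var)3-9 had 70.9, 60.6 and 112 CPM in mutant-labelled glands, against 2.96, 2.36 and 2.12 CPM in control glands, so its RNA was higher under the mutant label. In discs it had 4.81, 3.92 and 3.21 CPM in mutant-labelled libraries, against 24.7, 24.7 and 25.7 CPM in control libraries. For egg the difference was not past the threshold in either tissue (adjusted p = 0.851 in glands and 0.699 in discs). RNA levels alone do not settle the genotype either way, so the libraries are called mutant-labelled throughout.

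P450 genes took 0.0720% to 0.0804% of all counts in mutant-labelled glands, 0.0579% to 0.0671% in control glands, 0.0391% to 0.0479% in mutant-labelled discs and 0.0311% to 0.0377% in control discs, and different genes led in each tissue. Levels were compared between genes as RPKM, which is CPM per kilobase of exon with 1 scale for all 12 libraries, and a gene is called expressed at a group mean of 1 RPKM or more. By that measure 38 of the 84 genes were expressed in mutant-labelled glands, 33 in control glands, 14 in mutant-labelled discs and 14 in control discs. In all, 46 were expressed in at least 1 group, 31 of them in glands and not in discs and 3 in discs and not in glands (Cyp301a1, Cyp317a1 and Cyp4d14). Cyp301a1 takes part in forming the adult cuticle. The 10 genes expressed in every group were Cyp303a1, Cyp310a1, Cyp4ae1, Cyp4d2, Cyp4e2, Cyp6d4, Cyp6u1, Cyp6v1, Cyp9c1 and Cyp9f2. Antisense genes overlap 88.3% of the exons of Cyp4ae1 (asRNA:CR44690) and 33% of those of Cyp303a1 (heix). The library kit does not mark strand, so reads cannot be told apart there. Summed over the 84 genes, the level was 666 to 766 RPKM in mutant-labelled glands and 445 to 549 RPKM in control glands, with no overlap. It was 113 to 143 RPKM in mutant-labelled discs and 87.4 to 104 RPKM in control discs, again with no overlap. The numbers of expressed genes and these sums rest on 1 scaling of both tissues. On that scaling the gap in the sums between glands and discs is wider than in the shares of counts. The share of all genes at 1 RPKM or more is not given here, so the numbers of expressed genes do not set P450 genes apart from other genes.

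**Figure D1:**
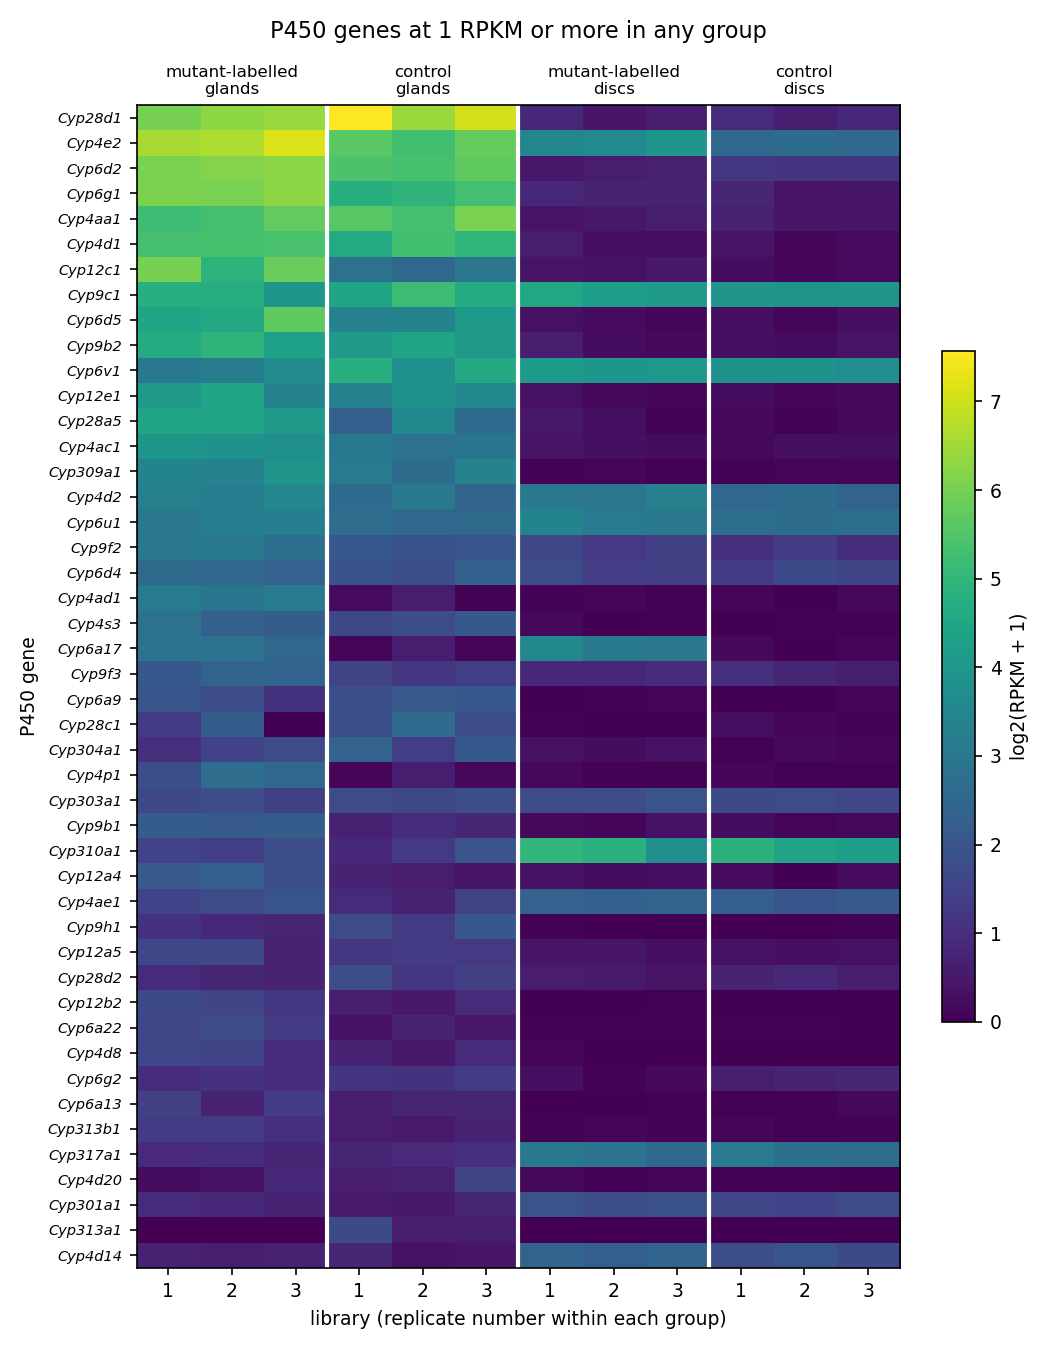
Levels of the 46 P450 genes at 1 RPKM or more in any group, as log2(RPKM + 1), with genes as rows ordered by their mean level in glands and the 12 libraries as columns. Most rows are bright in the gland columns and dark in the disc columns, while Cyp310a1, Cyp317a1, Cyp301a1 and Cyp4d14 run the other way.

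In mutant-labelled glands the highest level was that of Cyp4e2, at 95.0, 97.7 and 143 RPKM, against 48.7, 38.1 and 54.4 RPKM in control glands. Control glands were led by Cyp28d1, whose relative Cyp28d2 lies beside it on 2L. Cyp28d1 was at 64.1, 76.7 and 83.5 RPKM in mutant-labelled glands and 189, 85.4 and 131 RPKM in control glands, with no overlap and with control library 1 the highest. Cyp6d2, whose loss makes flies sensitive to camptothecin, was at 64.5, 70.1 and 74.8 RPKM in mutant-labelled glands and 42.7, 40.3 and 52.1 RPKM in control glands. Its exons overlap the antisense gene nsr over 51.0% of their length, so part of its level cannot be told apart from nsr. The level of nsr was 34.5 to 41.3 CPM in mutant-labelled glands and 26.1 to 29.7 CPM in control glands. Cyp4aa1 was at 36.3, 39.2 and 52.7 RPKM in mutant-labelled glands and 47.2, 39.6 and 64.6 RPKM in control glands, and these ranges overlap. Of its exons 15.8% overlap the antisense gene Strn-Mlck, which was at 529.7 to 1035 CPM in mutant-labelled glands and 649.9 to 1290.4 CPM in control glands, so part of the level of Cyp4aa1 cannot be told apart from it. The 5 highest genes made up 53.7% of the summed P450 level in mutant-labelled glands and 60.3% in control glands. In mutant-labelled glands Cyp4e2 lay above the rest in every library. The next in order, Cyp28d1, Cyp6d2 and Cyp6g1, had overlapping ranges, and Cyp12c1 lay just below them.

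Discs were led in both genotypes by Cyp310a1, Cyp9c1 and Cyp6v1. Cyp310a1 was at 30.6, 27.0 and 12.8 RPKM in mutant-labelled discs and 28.4, 20.4 and 17.7 RPKM in control discs, so the groups overlap. Cyp9c1 was at 18.6 ± 3.43 RPKM in mutant-labelled discs and 14.2 ± 0.245 RPKM in control discs (SD, n = 3 each). The exons of Cyp9c1 overlap an annotated antisense RNA over 98.2% of their length, and the library kit named in the labels does not mark strand. The library ranges of these 3 genes overlap in mutant-labelled discs and are separate in control discs. Cyp317a1 came next in control discs, at 7.17, 6.36 and 4.71 RPKM in mutant-labelled discs and 7.91, 5.87 and 5.50 RPKM in control discs. Of its exons 32.6% overlap the antisense gene Kank, which was at 133 to 188 CPM in mutant-labelled discs and 149.7 to 188 CPM in control discs, so their reads cannot be told apart there. Cyp6a17 was the fifth in mutant-labelled discs, at 10.7, 7.27 and 7.15 RPKM, against 0.126, 0 and 0.0775 RPKM in control discs. The 5 highest genes made up 61.7% of the summed level in mutant-labelled discs and 64.7% in control discs.

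No count was found in any library for 3 P450 genes (Cyp313a5, Cyp4d21 and the pseudogene Cyp6a15Psi). Cyp4d21 is known from adult male heads. Cyp4g1, the oenocyte enzyme that makes cuticular hydrocarbons, stayed at or below 0.114 RPKM in all libraries.

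In glands, 23 P450 genes differed between mutant-labelled and control libraries, 18 of them higher and 5 lower. The question, as the labels pose it, is how expression in this tissue differs under the double-mutant genotype. The Su(var)3-9 RNA of these glands was higher than in control glands and does not settle that genotype. Tests were made with edgeR over all genes that passed a filter on low counts, with Benjamini-Hochberg adjustment and a threshold of 0.05, on CPM scaled within the tissue. Of the 84 genes 61 passed the filter. The 23 calls are 37.7% of those tested, against 13.2% of the 9441 genes tested. For calls in the higher direction the share was 29.5%, against 7.26% of all genes, and in the lower direction 8.20%, against 5.91% of all genes. The median log2 change of the 61 was 0.45, and that of all genes tested was -0.04.

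In the Cyp12 family of mitochondrial enzymes 5 of 7 genes rose in mutant-labelled glands, none fell, and the family median of the log2 change was 2.59. Cyp12c1 (3L:18684259-18686319) had 70.0, 31.2 and 65.4 CPM in mutant-labelled glands, against 7.70, 5.55 and 8.07 CPM in control glands. Mutant-labelled library 2 was the lowest of its group and still lay above every control library. The log2 change was 2.96 ± 0.34 (SE) with an adjusted p of 0.00134. Cyp12a4, known for its part in lufenuron resistance, had 3.26, 3.74 and 2.63 CPM in mutant-labelled glands and 0.764, 0.514 and 0.378 CPM in control glands (log2 change 2.59 ± 0.35 (SE), adjusted p = 0.00288). Its upstream neighbour Cyp12a5 had 2.18, 2.14 and 0.715 CPM in mutant-labelled glands and 1.63, 1.75 and 1.55 CPM in control glands, with overlapping groups (log2 change 0.04 ± 0.42 (SE), adjusted p = 0.962).

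The tandem copies Cyp12d1-p and Cyp12d1-d (2R:11117225-11125647) respond to caffeine and phenobarbital in adult flies, and they are so alike that the counting could split reads between them. Cyp12d1-p had 1.24, 1.96 and 1.63 CPM in mutant-labelled glands and 0.0510, 0.205 and 0.132 CPM in control glands (log2 change 3.60 ± 0.48 (SE), adjusted p = 0.00273). Cyp12d1-d had 0.372, 0.954 and 0.613 CPM in mutant-labelled glands and 0, 0.103 and 0.0567 CPM in control glands (log2 change 3.51 ± 0.76 (SE), adjusted p = 0.0191). Both copies were low in control glands and rose by a similar amount. Cyp12b2 had 2.27, 2.07 and 1.48 CPM in mutant-labelled glands and 0.663, 0.462 and 0.983 CPM in control glands (log2 change 1.41 ± 0.36 (SE), adjusted p = 0.04). Cyp12e1 had 15.0, 19.2 and 9.50 CPM in mutant-labelled glands and 9.99, 13.0 and 10.7 CPM in control glands, which overlap (adjusted p = 0.418). In refits without 1 library, Cyp12d1-d missed the threshold without mutant-labelled library 2 or control library 1 or 3 (adjusted p = 0.0571 to 0.0855) and Cyp12b2 missed it without mutant-labelled library 1 or 2 or control library 1, 2 or 3 (adjusted p = 0.0502 to 0.132). The mitochondrial clan also holds Cyp301a1 and Cyp49a1, and neither passed in glands (adjusted p = 0.555 and 0.948).

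In the Cyp4 family, 5 of 15 tested genes rose in mutant-labelled glands and none fell. Cyp4p1 and Cyp4p2 are neighbours on 2R (9237512 to 9242139). Cyp4p2 had 0.832, 0.738 and 0.817 CPM in mutant-labelled glands and no count in any control gland library. It was at least 24.4-fold higher, with the control group set to a floor of 3 counts over its libraries (adjusted p = 0.00357). Cyp4p1 had 2.46, 5.33 and 4.82 CPM in mutant-labelled glands and 0.102, 0.514 and 0.113 CPM in control glands (log2 change 4.26 ± 0.62 (SE), adjusted p = 0.004). The third gene of the group, Cyp4p3, did not pass the filter and had 0.142, 0.252 and 0.255 CPM in mutant-labelled glands, against 0.102, 0 and 0.0378 CPM in control glands.

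Cyp4ad1 and Cyp4e2 lie next to each other on 2R, with Cyp4e1 after them (8439395 to 8449745). Cyp4ad1 had 8.65, 7.40 and 8.78 CPM in mutant-labelled glands and 0.204, 0.616 and 0.0378 CPM in control glands, and all mutant-labelled libraries lay far above the highest control library. Its log2 change was 5.13 ± 0.68 (SE) with an adjusted p of 0.00269. Without control library 2 the log2 changes of Cyp4ad1 and Cyp4p1 became 6.52 and 5.23, and without control library 3 that of Cyp4ad1 became 4.32. Cyp4e2, the most abundant P450 transcript of mutant-labelled glands, had 105, 107 and 168 CPM in mutant-labelled glands and 61.6, 44.3 and 63.8 CPM in control glands (log2 change 1.16 ± 0.26 (SE), adjusted p = 0.0221). Cyp4ac1 had 14.6, 12.9 and 12.9 CPM in mutant-labelled glands and 8.21, 6.21 and 6.88 CPM in control glands (log2 change 0.93 ± 0.17 (SE), adjusted p = 0.0118). Cyp4e2 missed the threshold without control library 1 or 3 (adjusted p = 0.0517 to 0.0621), and Cyp4ac1 missed it without mutant-labelled library 1 or control library 3 (adjusted p = 0.0538 to 0.0574). The neighbours of Cyp4ac1 did not pass, with log2 changes of -1.64 ± 0.48 (SE) for Cyp4ac2 (adjusted p = 0.0612) and 1.39 ± 0.76 (SE) for Cyp4ac3 (adjusted p = 0.286). In the Cyp4d subfamily none of 5 tested genes passed by edgeR within glands or by DESeq2 (2 had an unadjusted p under 0.05), and their median log2 change was 0.32. In the fit of all 12 libraries Cyp4d2 was called higher (log2 change 0.72, adjusted p = 0.0126). The antisense RNA asRNA:CR44690 overlaps 98.7% of its exons and rose in glands too (log2 change 0.80, adjusted p = 0.0245). Without strand the reads of the pair cannot be told apart.

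**Figure D2:**
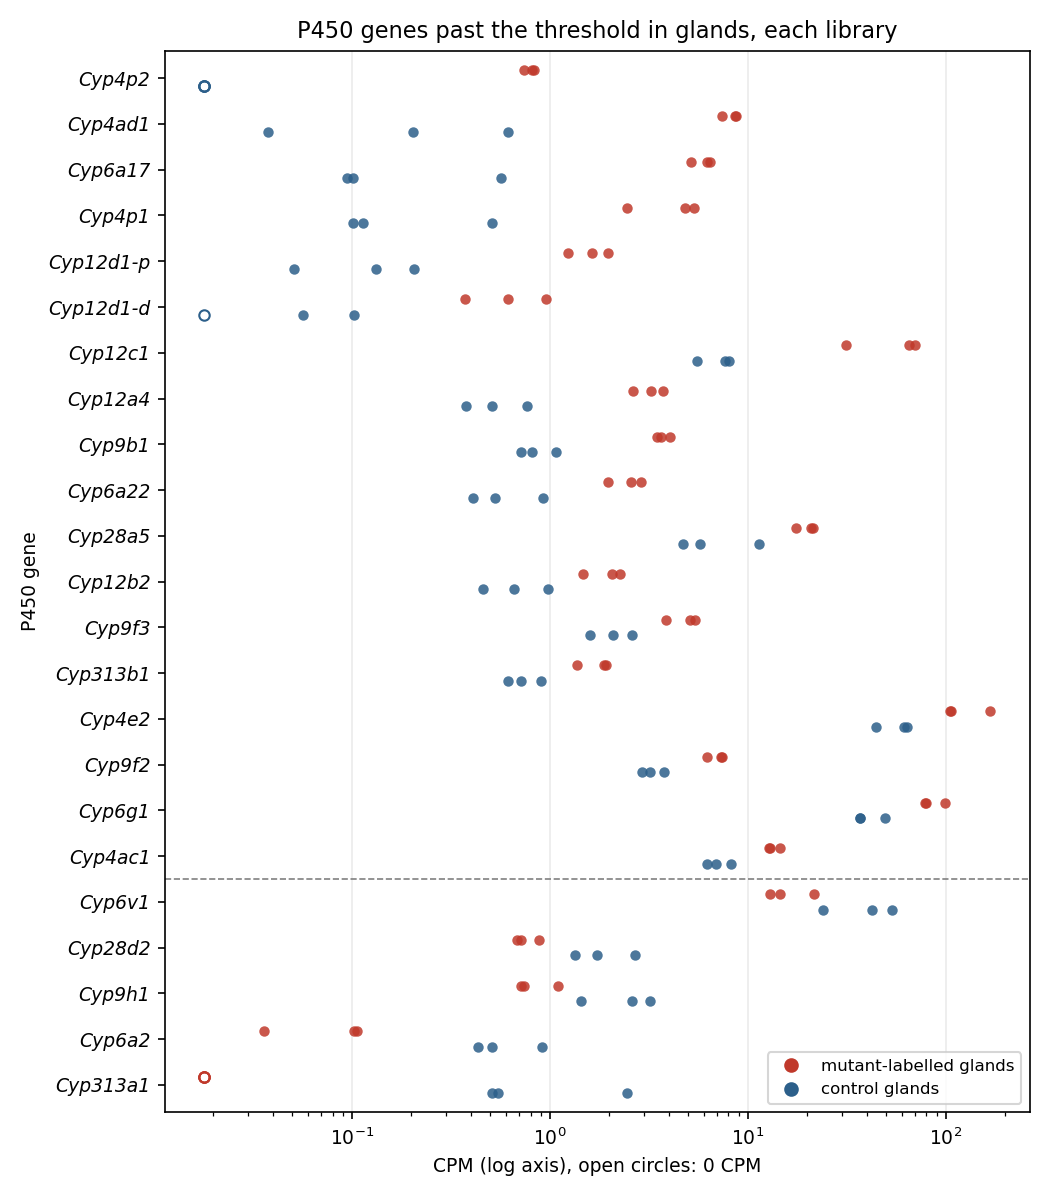
CPM on a log axis of the 23 P450 genes past the threshold in glands, 1 point per library, with mutant-labelled libraries above control libraries in each row and open circles at the left for 0 CPM. Above the dashed line are the 18 genes that rose and below it the 5 that fell, ordered by fitted log2 change.

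In the Cyp6 family, 3 of 19 tested genes rose in mutant-labelled glands and 2 fell, and the family median of the log2 change was -0.46. Cyp6a17 (2R:14873953-14875739), known for its part in the temperature preference of adult flies, had 6.44, 6.25 and 5.18 CPM in mutant-labelled glands and 0.102, 0.565 and 0.0945 CPM in control glands (log2 change 4.74 ± 0.59 (SE), adjusted p = 0.00204). Mutant-labelled libraries lay close together and control library 2 was the highest of its group. Without control library 2 the log2 change was 5.91, and without control library 3 it was 4.15. Cyp6a22, which lies just before it, had 2.58, 2.88 and 1.97 CPM in mutant-labelled glands and 0.408, 0.924 and 0.529 CPM in control glands (log2 change 2.02 ± 0.37 (SE), adjusted p = 0.0105). Cyp6g1, the gene whose high expression gives resistance to DDT and imidacloprid, had 79.4, 78.4 and 99.4 CPM in mutant-labelled glands and 36.7, 37.0 and 49.4 CPM in control glands (log2 change 1.06 ± 0.20 (SE), adjusted p = 0.0115). Cyp6a22 missed the threshold without control library 3 (adjusted p = 0.0528) and Cyp6g1 missed it without control library 1 (adjusted p = 0.0504).

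Cyp6a2 and Cyp6v1 fell. Cyp6a2, which is induced by phenobarbital, had 0.106, 0.0360 and 0.102 CPM in mutant-labelled glands and 0.917, 0.514 and 0.435 CPM in control glands (log2 change -2.87 ± 0.60 (SE), adjusted p = 0.017). Cyp6v1 had 13.0, 14.5 and 21.7 CPM in mutant-labelled glands and 53.6, 24.1 and 42.3 CPM in control glands (log2 change -1.29 ± 0.32 (SE), adjusted p = 0.0359). The groups of both genes were separate, with a small gap for Cyp6v1 between mutant-labelled library 3 and control library 2. The antisense RNA asRNA:CR45466 overlaps 18.4% of the exons of Cyp6v1, and shared reads cannot be told apart. Its log2 change in glands was -1.31 and did not pass (adjusted p = 0.185). Cyp6a2 missed the threshold without mutant-labelled library 1 or 2 or control library 1 (adjusted p = 0.0518 to 0.0721), and Cyp6v1 missed it without mutant-labelled library 1 or 2 or control library 1 or 3 (adjusted p = 0.0933 to 0.134). Of the genes that did not pass, Cyp6a14 had a log2 change of 3.15 ± 0.94 (SE) (adjusted p = 0.0609) and Cyp6d5 of 1.37 ± 0.41 (SE) (adjusted p = 0.0667). DESeq2 called both higher (adjusted p = 0.0240 and 0.00791).

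The Cyp9, Cyp28 and Cyp313 families split in glands: 3 of 6 Cyp9 genes rose and 1 fell, 1 of 4 Cyp28 genes rose and 1 fell, and of the 2 Cyp313 genes tested 1 rose and 1 fell. Cyp9b1 had 3.66, 3.47 and 4.03 CPM in mutant-labelled glands and 0.713, 1.08 and 0.813 CPM in control glands (log2 change 2.10 ± 0.27 (SE), adjusted p = 0.00236), while its neighbour Cyp9b2 had 23.4, 28.3 and 19.7 CPM in mutant-labelled glands and 17.4, 20.8 and 16.7 CPM in control glands, with overlapping groups (adjusted p = 0.255). The adjacent pair Cyp9f2 and Cyp9f3 rose together. Cyp9f2 had 7.36, 7.38 and 6.25 CPM in mutant-labelled glands and 3.77, 2.93 and 3.21 CPM in control glands (log2 change 1.08 ± 0.20 (SE), adjusted p = 0.0115). Cyp9f3 had 3.86, 5.11 and 5.44 CPM in mutant-labelled glands and 2.60, 1.59 and 2.08 CPM in control glands (log2 change 1.20 ± 0.27 (SE), adjusted p = 0.0238). Cyp9h1 fell, with 1.10, 0.738 and 0.715 CPM in mutant-labelled glands and 2.60, 1.44 and 3.20 CPM in control glands (log2 change -1.51 ± 0.37 (SE), adjusted p = 0.0337). Cyp9f2 missed the threshold without mutant-labelled library 2 or control library 3 (adjusted p = 0.0523 to 0.0554), Cyp9f3 without mutant-labelled library 2 or 3 or control library 3 (adjusted p = 0.0596 to 0.0883) and Cyp9h1 without mutant-labelled library 1, 2 or 3 or control library 1 or 3 (adjusted p = 0.058 to 0.127).

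Cyp28a5 had 21.4, 20.8 and 17.5 CPM in mutant-labelled glands and 4.69, 11.4 and 5.71 CPM in control glands (log2 change 1.46 ± 0.32 (SE), adjusted p = 0.0225). Cyp28d2 fell, with 0.885, 0.684 and 0.715 CPM in mutant-labelled glands and 2.70, 1.34 and 1.74 CPM in control glands (log2 change -1.33 ± 0.35 (SE), adjusted p = 0.0429). Its abundant neighbour Cyp28d1 had a log2 change of -0.96 ± 0.32 (SE) and did not pass by edgeR within glands (adjusted p = 0.0929). It was called lower by DESeq2 (adjusted p = 0.0251) and in the fit of all 12 libraries (adjusted p = 0.0467). Cyp313a1 (3R:14521049-14523064) had no count in any mutant-labelled gland library, against 2.45, 0.514 and 0.548 CPM in control glands. It was at least 58.9-fold lower, with the mutant-labelled group set to the floor of 3 counts (adjusted p = 0.0139). Control library 1 was the highest, and without it the fitted log2 change was -7.57, against -8.53 with all libraries, and both depend on the prior count. Cyp313b1 rose, with 1.93, 1.89 and 1.38 CPM in mutant-labelled glands and 0.713, 0.616 and 0.908 CPM in control glands (log2 change 1.19 ± 0.31 (SE), adjusted p = 0.0435). Cyp28a5 missed the threshold without mutant-labelled library 1 or 2 or control library 1 or 3 (adjusted p = 0.0617 to 0.0847), Cyp28d2 without mutant-labelled library 1, 2 or 3 or control library 1 or 3 (adjusted p = 0.0933 to 0.153) and Cyp313b1 without mutant-labelled library 1, 2 or 3 or control library 1, 2 or 3 (adjusted p = 0.0512 to 0.148).

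Of the 23 gland calls, 9 held in each of the 6 refits without 1 library (Cyp12a4, Cyp12c1, Cyp12d1-p, Cyp313a1, Cyp4ad1, Cyp4p1, Cyp4p2, Cyp6a17 and Cyp9b1), and the number of calls ran from 11 to 25. It was 14 without control library 1, 11 without control library 3, 15 without mutant-labelled library 1 and 13 without mutant-labelled library 2. Among cell type markers in glands, 6 of 14 fat body markers tested rose and none fell. Of all genes tested in glands 7.26% rose and 5.91% fell. The 15 fat body markers summed to 25799 to 34332 CPM in mutant-labelled glands, against 12774 to 19436 CPM in control glands. Of the fat body markers, Lsp1beta had a log2 change of 1.28 and fat-spondin of 1.74. Midgut markers summed to at most 1.20 CPM in mutant-labelled glands and 0.567 CPM in control glands, with 4 of 15 (Amy-d, gammaTry, lambdaTry and thetaTry) at 0 in all of these libraries. Malpighian tubule markers summed to 461 to 764 CPM in mutant-labelled glands and 543 to 857 CPM in control glands, and 1 of 8 tested passed, higher. In tracheal markers 3 of 11 fell (139.9 to 159 CPM in mutant-labelled glands, 216 to 249 CPM in control glands). The part of these tissues in the P450 results was not tested, and in whole tissue fewer cells of a type and less RNA per cell cannot be told apart.

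The largest group of neighbouring P450 genes lies at 2R:14871366-14903095 and holds 8 genes in the order Cyp6a22, Cyp6a17, Cyp6a23, Cyp6a19, Cyp6a9, Cyp6a20, Cyp6a8 and Cyp317a1. In glands Cyp6a22 and Cyp6a17 rose, and the next gene did not pass: Cyp6a23 had 0.513, 0.756 and 0.230 CPM in mutant-labelled glands and 0.917, 1.44 and 0.567 CPM in control glands, with overlapping groups (log2 change -0.90 ± 0.54 (SE), adjusted p = 0.333). Cyp6a19, Cyp6a9, Cyp6a20 and Cyp317a1 did not pass either, with log2 changes of -0.06 to -0.96. Cyp6a20, known for its effect on male aggression, had 0.265, 0.144 and 0.0255 CPM in mutant-labelled glands and 0.612, 0 and 0.265 CPM in control glands. Cyp6a8 did not pass the filter. In discs Cyp6a17 and Cyp6a23 rose and Cyp317a1, the only other gene of the group tested there, did not pass (adjusted p = 0.712). Cyp6a17 and Cyp6a23 are close paralogs side by side, so reads could be split between them in the counting.

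**Figure D3:**
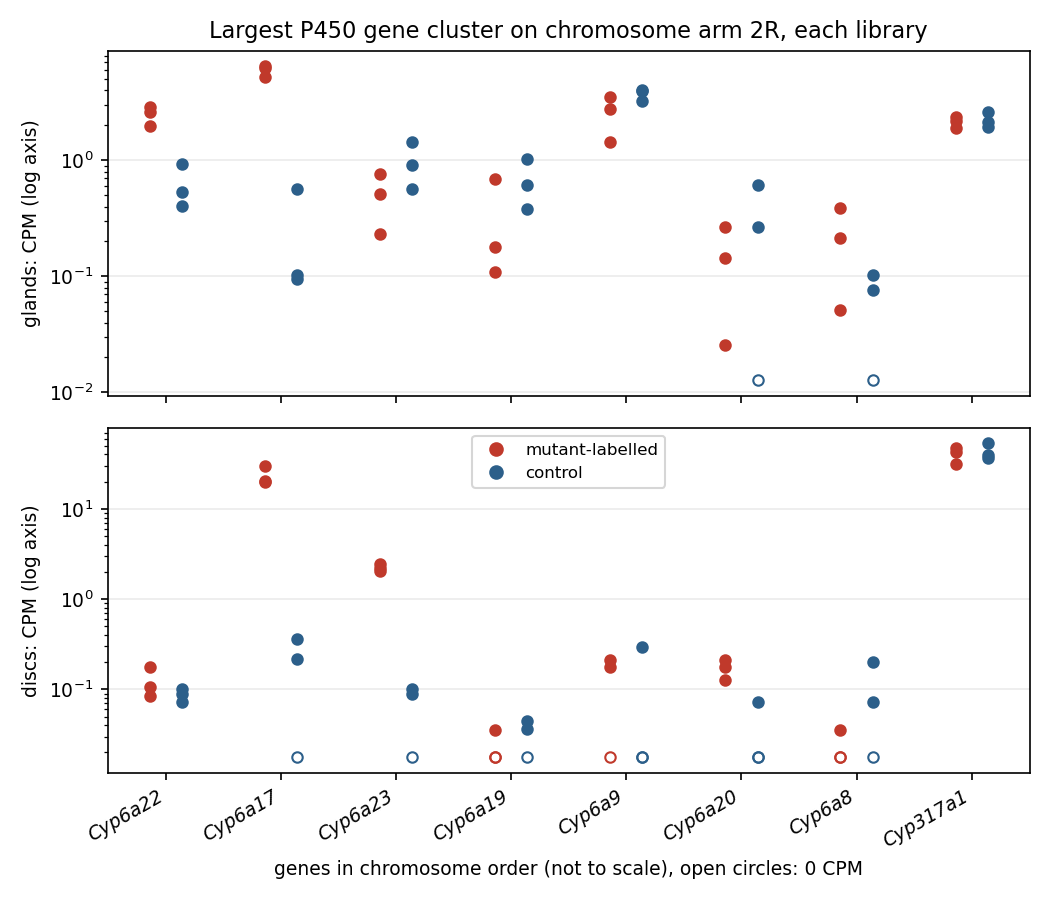
CPM on a log axis of the 8 P450 genes of the largest cluster, in chromosome order, with glands above and discs below, 1 point per library, mutant-labelled left of control, and open circles at the bottom for 0 CPM. Cyp6a17 is high in mutant-labelled libraries of both tissues, and Cyp6a23 in mutant-labelled discs, while Cyp317a1 at the far end has overlapping groups in both.

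In discs, 11 of the 35 P450 genes tested differed between mutant-labelled and control libraries, 8 higher and 3 lower. The share of 31.4% is close to the 31.3% of the 9379 genes tested in discs. In the higher direction it was 22.9%, against 16% of all genes, and in the lower direction 8.57%, against 15.2% of all genes. The median log2 change was 0.24, and that of all genes tested was 0.00. The remaining 49 P450 genes were too low in discs to be tested.

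Cyp6a17 changed more than any other P450 gene tested in discs. It had 30.1, 20.4 and 20.1 CPM in mutant-labelled discs and 0.357, 0 and 0.219 CPM in control discs, where control library 2 had no count (log2 change 6.84 ± 0.38 (SE), adjusted p = 5.28e-07). All mutant-labelled libraries were far above all control libraries, and without control library 1 the log2 change was 7.49. Cyp6a23 had 2.45, 2.07 and 2.20 CPM in mutant-labelled discs and 0.0893, 0.100 and 0 CPM in control discs (log2 change 5.15 ± 0.57 (SE), adjusted p = 8.34e-05). Without control library 3, the library with no count, the log2 change of Cyp6a23 was 4.49. Cyp6u1 had 31.9, 24.8 and 23.6 CPM in mutant-labelled discs and 18.8, 17.8 and 18.6 CPM in control discs (log2 change 0.54 ± 0.12 (SE), adjusted p = 0.00796). Cyp6v1 had 80.5, 72.2 and 75.5 CPM in mutant-labelled discs and 66.7, 67.8 and 59.3 CPM in control discs (log2 change 0.24 ± 0.08 (SE), adjusted p = 0.044), and it missed the threshold without mutant-labelled library 1 or 3 or control library 1, 2 or 3 (adjusted p = 0.0612 to 0.183). The antisense RNA over part of its exons, asRNA:CR45466, had a log2 change of 0.42 in discs that did not pass (adjusted p = 0.0766).

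The 3 genes that fell in discs were all of the Cyp6 family. Cyp6g2, which neighbours Cyp6g1, had 0.787, 0.142 and 0.465 CPM in mutant-labelled discs and 1.79, 2.10 and 2.41 CPM in control discs (log2 change -2.20 ± 0.48 (SE), adjusted p = 0.0062). Mutant-labelled library 1 was the highest of its group, and without it the log2 change was -2.80. Cyp6t3, an enzyme that ecdysone synthesis in the prothoracic gland depends on, lies beside Cyp6g2 and had 1.44, 0.606 and 1.18 CPM in mutant-labelled discs and 2.90, 2.85 and 2.22 CPM in control discs (log2 change -1.31 ± 0.34 (SE), adjusted p = 0.0157). It missed the threshold without mutant-labelled library 2 or control library 2 (adjusted p = 0.0513 to 0.0559). Cyp6d2 had 1.18, 1.39 and 1.69 CPM in mutant-labelled discs and 3.93, 3.61 and 3.57 CPM in control discs (log2 change -1.38 ± 0.25 (SE), adjusted p = 0.0022). Its exons overlap the antisense gene nsr over 51.0% of their length, and nsr had a log2 change of -1.89 in discs (adjusted p = 0.00313), so reads of the 2 genes cannot be told apart.

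**Figure D4:**
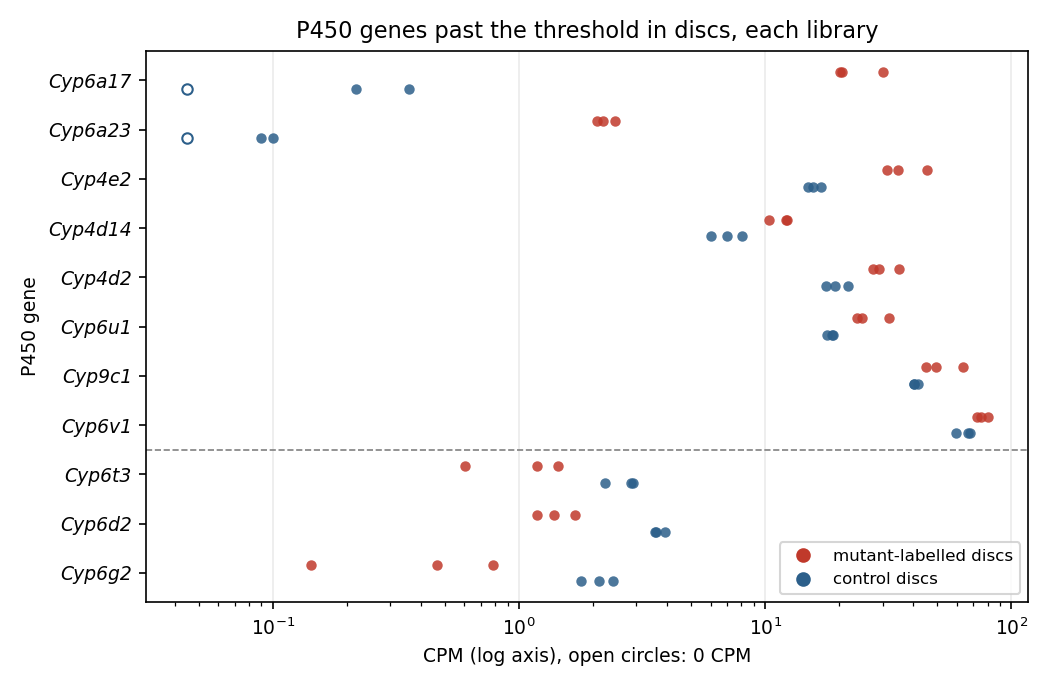
CPM on a log axis of the 11 P450 genes past the threshold in discs, 1 point per library, with mutant-labelled libraries above control libraries in each row and open circles at the left for 0 CPM. Cyp6a17 and Cyp6a23 stand apart by the width of their gap, and Cyp6v1 and Cyp9c1 have the smallest fitted changes.

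In the Cyp4 family 3 of 8 tested genes rose in mutant-labelled discs and none fell. Cyp4e2 had 31.3, 34.6 and 45.4 CPM in mutant-labelled discs and 14.9, 16.9 and 15.6 CPM in control discs (log2 change 1.23 ± 0.14 (SE), adjusted p = 0.0001). This change was close in size to that of Cyp4e2 in glands. Cyp4d14 had 12.2, 10.4 and 12.2 CPM in mutant-labelled discs and 7.01, 8.01 and 6.02 CPM in control discs (log2 change 0.73 ± 0.15 (SE), adjusted p = 0.00414). Cyp4d2 had 28.9, 27.4 and 35.1 CPM in mutant-labelled discs and 19.2, 21.8 and 17.6 CPM in control discs (log2 change 0.64 ± 0.12 (SE), adjusted p = 0.00292). Both lie within the group Cyp4d1, Cyp4d14, Cyp4d2 and Cyp4ae1 on the X chromosome, where antisense genes cover 97.2% of the exons of Cyp4d14 (asRNA:CR45479 and ND-B14.5A) and 98.7% of those of Cyp4d2 (asRNA:CR44690). The antisense RNAs rose in discs too, with log2 changes of 0.85 for asRNA:CR45479 and 0.46 for asRNA:CR44690, and their reads cannot be told apart from those of the Cyp4d genes.

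Cyp9c1 rose in discs, with 63.7, 49.4 and 44.9 CPM in mutant-labelled discs and 41.6, 40.1 and 40.2 CPM in control discs (log2 change 0.37 ± 0.12 (SE), adjusted p = 0.0361), and it missed the threshold without mutant-labelled library 1 or control library 1, 2 or 3 (adjusted p = 0.0518 to 0.107). The antisense RNA that overlaps it, asRNA:CR43787, had 64.3, 50.0 and 48.0 CPM in mutant-labelled discs and 44.8, 42.0 and 43.3 CPM in control discs. In each library these values lie close to those of Cyp9c1 itself, and without strand the reads of the 2 genes cannot be told apart. Cyp9c1 lies 143 kb from egg, the only P450 gene within 1 Mb of it, and Cyp313a1 lies 737 kb from Su(var)3-9. None of 3 Cyp12 genes tested passed in discs by edgeR or DESeq2 (1 had an unadjusted p under 0.05), and there Cyp12c1 had 1.05, 0.855 and 1.27 CPM in mutant-labelled discs and 0.625, 0.250 and 0.511 CPM in control discs, without overlap (log2 change 1.16 ± 0.41 (SE), adjusted p = 0.0544). Of the 11 disc calls, 8 held in each refit without 1 library. In discs 5 of 10 hemocyte markers fell (15.9 to 23.4 CPM in mutant-labelled discs, 37.0 to 54.0 CPM in control discs), and 5 of 10 wing disc markers fell and 1 rose. Of 14 fat body markers tested 2 rose and 1 fell, with sums of 468 to 927 CPM in mutant-labelled discs and 415 to 637 CPM in control discs. Of 9 Malpighian tubule markers 1 rose and 3 fell, and of 11 tracheal markers 3 rose and 3 fell. Muscle markers rose in 2 of 10, and neuron markers fell in 2 of 6. Of all genes tested in discs 16% rose and 15.2% fell. The part of these marker changes in the P450 results was not tested.

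Between the tissues, 33 P450 genes were tested in both, 28 in glands only, 2 in discs only and 21 in neither. Cyp6a17 and Cyp4e2 rose in both tissues, and Cyp6v1 fell in glands and rose in discs. The change had the same sign in both tissues for 24 of the 33 genes, or 72.7%, against 61.3% of the 8515 genes tested in both.

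**Figure D5:**
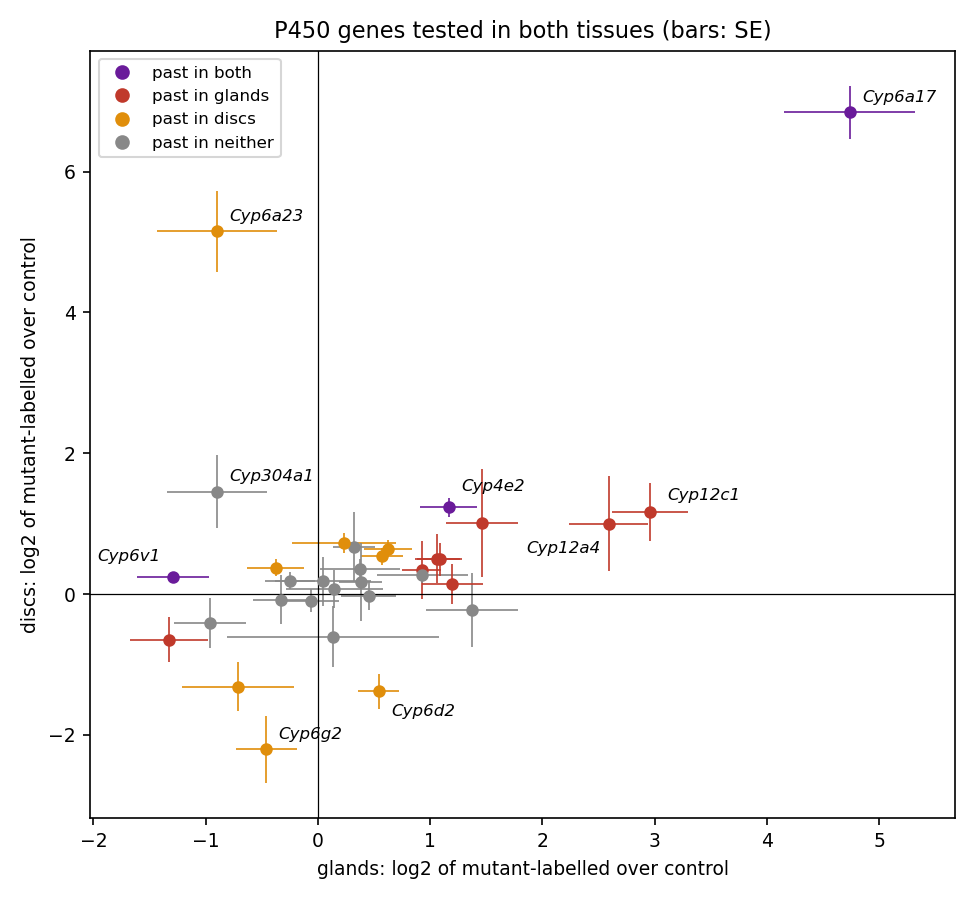
Log2 change of mutant-labelled over control libraries in glands (x axis) and in discs (y axis) for the 33 P450 genes tested in both tissues, with bars of 1 SE and colours for the tissue in which a gene was past the threshold. Cyp6a17 lies at the upper right (4.74 in glands and 6.84 in discs), while Cyp6a23 is high on the disc axis (5.15) and below 0 on the gland axis (-0.90).

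The difference of the 2 changes was tested in 1 fit over all 12 libraries, as the disc change minus the gland change. Of 57 P450 genes tested, 8 passed, 3 with a positive and 5 with a negative difference. That is 14%, against 10.1% of the 10185 genes tested. Positive differences made up 5.26%, against 4.47% of all genes, and negative ones 8.77%, against 5.62% of all genes. Cyp6a23 had a difference of 5.92 ± 0.94 (SE) (adjusted p = 0.00136): it rose in discs, and in glands its change did not pass. Cyp6v1, lower in mutant-labelled glands and higher in mutant-labelled discs, had a difference of 1.44 ± 0.32 (SE) (adjusted p = 0.0138). Of its exons 18.4% overlap the antisense RNA asRNA:CR45466, whose difference was 1.67 and did not pass (adjusted p = 0.112). Without strand their shared reads cannot be told apart. Cyp6d2 had a difference of -2.0 ± 0.22 (SE) (adjusted p = 9.67e-05), with a fall in discs and a log2 change of 0.54 ± 0.18 (SE) in glands that did not pass by edgeR within the tissue (adjusted p = 0.0929). DESeq2 and the fit of all 12 libraries called that gland change higher (adjusted p = 0.0447 and 0.00548). The overlapping antisense gene nsr had a difference of -2.41 (adjusted p = 0.000218), so the difference of Cyp6d2 cannot be told apart from that of nsr.

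Among the genes that rose in glands, Cyp12c1 had a difference of -1.88 ± 0.54 (SE) (adjusted p = 0.0443), Cyp12d1-p of -4.88 ± 1.02 (SE) (adjusted p = 0.00779) and Cyp4ad1 of -5.50 ± 1.21 (SE) (adjusted p = 0.0122). In discs Cyp12d1-p had 0.0437, 0.0712 and 0 CPM in mutant-labelled libraries and 0.0893, 0.100 and 0.109 CPM in control libraries. Cyp4ad1 had 0.175, 0.285 and 0.0845 CPM in mutant-labelled discs and 0.268, 0 and 0.365 CPM in control discs, so both genes were near 0 in discs whatever the genotype. Neither passed the filter in discs alone, and their differences rest on the gland values that brought them into the fit, with too few disc counts to measure a disc change. The fitted differences of Cyp4p2 (-12.22, adjusted p = 0.0203) and Cyp6a2 (6.01, adjusted p = 0.0472) rest on groups with no count and depend on the prior count. For Cyp4p2 the only disc counts were in control library 3, at 0.219 CPM, and without that library the adjusted p was 1. Without that library Cyp4ad1 missed the threshold too (-4.78, adjusted p = 0.112). The difference of Cyp4ad1 was -6.88 without control gland library 2 and -4.68 without control gland library 3, and that of Cyp12d1-p was -5.56 without mutant-labelled disc library 2. In the 12 refits without 1 library, Cyp12c1 was past the threshold only without mutant-labelled gland library 2, control gland library 3 or control disc library 2, and Cyp6a2 only without mutant-labelled disc library 3.

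Glands and discs of 1 genotype differed in most P450 genes, as they did in most genes. In mutant-labelled larvae 38 of the 53 P450 genes tested were higher in glands and 8 lower, 86.8% in all against 82.8% of the 9847 genes tested. Those higher in glands made up 71.7%, against 40.6% of all genes, and those lower 15.1%, against 42.2% of all genes. In control larvae 34 of 45 were higher in glands and 5 lower, 86.7% in all against 80.2% of the 9402 genes tested. Here the shares were 75.6% higher, against 39.2% of all genes, and 11.1% lower, against 41.1% of all genes. In both genotypes 29 genes were higher in glands and 5 were lower. These directions rest on glands and discs scaled together.

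Among genes with counts in discs, Cyp309a1, Cyp6d5 and Cyp12b2 had the largest fitted differences toward glands of mutant-labelled larvae. Cyp4p2 and Cyp6w1 had no count in mutant-labelled discs, so their rank depends on the prior count. On CPM scaled over all 12 libraries they were at least 54.4-fold and 53.2-fold higher in glands, with discs set to the floor of 3 counts over the group. These minimums hold on that scaling only. For Cyp4p2 the gland mean was 1.34 CPM and the disc floor 0.0247 CPM, against 0.796 and 0.0402 CPM when each tissue was scaled alone. Cyp309a1 was at 9.65, 9.19 and 14.1 RPKM in mutant-labelled glands and 0.0537, 0.0657 and 0.0260 RPKM in mutant-labelled discs (log2 difference 7.75 ± 0.34 (SE), adjusted p = 2.5e-07). Cyp6d5 was at 20.3, 22.6 and 51.1 RPKM in mutant-labelled glands and 0.262, 0.160 and 0.0951 RPKM in mutant-labelled discs (log2 difference 7.51 ± 0.53 (SE), adjusted p = 3.27e-06). Cyp12b2 had counts in 1 of the 3 mutant-labelled disc libraries and a log2 difference of 7.37 ± 0.71 (SE), which was 9.83 without mutant-labelled disc library 3, the library with counts. In control larvae the largest fitted differences among genes with counts in discs were those of Cyp28d1 (log2 difference 7.54 ± 0.42 (SE)) and Cyp4d1 (7.29 ± 0.36 (SE)). Cyp6w1, Cyp313a1 and Cyp12b2 had no count in control discs. They were at least 72.2-fold, 68.7-fold and 42.5-fold higher in glands, again only on the scaling over all 12 libraries. Cyp4d1 was at 23.8, 37.8 and 29.7 RPKM in control glands and 0.308, 0.107 and 0.176 RPKM in control discs. Without control gland library 1 the fitted log2 difference of Cyp313a1 was 7.78, which depends on the prior count.

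Toward discs, the same 4 genes were among the largest in both genotypes. Cyp310a1 had a log2 difference, glands over discs, of -3.52 ± 0.35 (SE) in mutant-labelled larvae and -3.56 ± 0.38 (SE) in control larvae. For Cyp317a1 it was -2.75 ± 0.21 (SE) in mutant-labelled larvae and -2.81 ± 0.21 (SE) in control larvae, and for Cyp4d14 it was -2.82 ± 0.21 (SE) in mutant-labelled larvae and -2.38 ± 0.40 (SE) in control larvae. Antisense genes overlap both, and without strand their reads cannot be told apart. Kank, which overlaps Cyp317a1, had -3.20 in mutant-labelled larvae and -3.38 in control larvae. Over Cyp4d14, asRNA:CR45479 had -2.94 and -2.83 and ND-B14.5A had 1.40 and 1.83, in the same order. Cyp301a1 had -1.74 ± 0.22 (SE) in mutant-labelled larvae and -1.80 ± 0.30 (SE) in control larvae. Cyp4ae1 was the fifth in control larvae, at -1.49 ± 0.35 (SE), and its exons overlap the antisense RNA asRNA:CR44690 over 88.3% of their length. That RNA had a log2 difference of -0.36 in control larvae, which did not pass (adjusted p = 0.0515). Without control gland library 3 the differences of Cyp310a1 and Cyp4ae1 in control larvae were -4.27 and -2.11. Cyp18a1, the enzyme that inactivates ecdysone, had the largest difference toward discs in mutant-labelled larvae (-4.42 ± 0.41 (SE), adjusted p = 1.62e-05). It was at 0.0200, 0.0204 and 0.0270 RPKM in mutant-labelled glands and 0.545, 0.452 and 0.512 RPKM in mutant-labelled discs. In control larvae Cyp18a1 was at 0.426, 0 and 0.291 RPKM in glands and 0.613, 0.510 and 0.615 RPKM in discs and did not pass (adjusted p = 0.154). Cyp6v1 was lower in glands than discs of mutant-labelled larvae (log2 difference -0.76 ± 0.18 (SE)). In control larvae it was higher in glands on the scaling used (0.73 ± 0.26 (SE)). Its counts were 1052, 470 and 2238 in control glands, of 19775440, 17418224 and 52209922 gene counts. Control discs had 1493, 1353 and 1627 of 22119529, 19781382 and 27303075. Over plain depth Cyp6v1 was thus lower in control glands than in control discs, so its direction in control larvae depends on the scaling.

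Low or uneven values were seen in 3 further genes. Cyp18a1 had 2, 2 and 2 counts in mutant-labelled glands and 17, 0 and 29 counts in control glands, and did not pass the filter in glands. The fit of all 12 libraries called it lower in glands (log2 change -3.41, adjusted p = 0.00955), and DESeq2 called its difference between tissues (3.31, adjusted p = 0.00729). Cyp305a1 had no count in mutant-labelled glands and 2, 8 and 18 counts in control glands, and 1, 0 and 0 counts in mutant-labelled discs, against 6, 14 and 6 counts in control discs. It did not pass the filter in either tissue, and with no filter it was called lower in both (adjusted p = 0.0148 in glands and 0.0132 in discs). Cyp28c1 had 81, 200 and 0 counts in mutant-labelled glands, so 1 library of 3 had none, against 55, 105 and 135 counts in control glands (adjusted p = 0.565). These 3 genes were picked after their values were seen.

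Partners and relatives of the P450 genes were read from lists of known genes. Of the ecdysone-synthesis enzymes, 7 of 8 were found in the tables. Only sro, a dehydrogenase of that pathway, passed in glands, where 3 were tested, with 111, 103 and 107 CPM in mutant-labelled glands and 64.8, 66.3 and 63.3 CPM in control glands (log2 change 0.72 ± 0.16 (SE), adjusted p = 0.0212). None of 6 tested in discs passed by edgeR or DESeq2, and 1 of them had an unadjusted p under 0.05. The P450 enzyme shd, which makes active 20-hydroxyecdysone, had 10.1, 7.36 and 9.80 CPM in mutant-labelled glands and 11.5, 2.57 and 5.26 CPM in control glands, with overlapping groups (adjusted p = 0.540).

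A list of 6 genes was read for electron donors of P450 enzymes, and whether Cyt-b5-r acts as one was not tested. In glands 1 of 6 tested rose (Cyt-b5-r) and 1 fell (dare), against 7.26% and 5.91% of all genes. In discs 1 of 5 fell (dare) and 0 rose, against 15.2% and 16% of all genes. The gene dare encodes the reductase that feeds mitochondrial P450 enzymes, and it had 7.45, 7.78 and 4.01 CPM in mutant-labelled glands and 16.9, 12.1 and 13.2 CPM in control glands (log2 change -1.13 ± 0.28 (SE), adjusted p = 0.0338). In discs it had 17.6, 16.1 and 14.8 CPM in mutant-labelled libraries and 19.7, 20.8 and 21.2 CPM in control libraries (log2 change -0.35 ± 0.10 (SE), adjusted p = 0.0273). Both groups were separate in both tissues. Cyt-b5-r had 12.6, 11.3 and 11.8 CPM in mutant-labelled glands and 2.60, 5.34 and 3.69 CPM in control glands (log2 change 1.62 ± 0.26 (SE), adjusted p = 0.00653). Of 9 genes of heme synthesis and breakdown none passed in glands by edgeR (2 at an unadjusted p under 0.05, and 2, Pbgs and Ppox, by DESeq2).

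Regulators of the xenobiotic and hormone response did not pass in glands (0 of 11 by edgeR, 2 at an unadjusted p under 0.05, and 1, Keap1, by DESeq2). In discs 3 rose and 2 fell, among them Keap1, the inhibitor of the stress factor cnc, with 18.1, 17.6 and 16.7 CPM in mutant-labelled discs and 60.5, 66.0 and 59.6 CPM in control discs (log2 change -1.83 ± 0.08 (SE), adjusted p = 1.09e-07). Hr96, a nuclear receptor of xenobiotics, had a log2 change of 0.34 in discs. Among other detoxifying families in glands, 7 of 27 tested glutathione transferases and 6 of 9 alpha-esterases rose and none of either fell, and 2 of 16 UDP-glycosyltransferases rose and 4 fell. Of all genes tested in glands 7.26% rose and 5.91% fell. In discs 6 of 26 glutathione transferases rose and 9 fell, 4 of 6 alpha-esterases fell and none rose, and 4 of 13 UDP-glycosyltransferases rose and 2 fell, against 16% of all genes that rose and 15.2% that fell. GstE1 and GstE10 rose in both tissues, and alpha-Est1 had 447, 483 and 977 CPM in mutant-labelled glands, against 12.9, 17.6 and 13.0 CPM in control glands.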

How the data were processed

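The authors deposited 1 table of raw read counts per gene and library (featureCounts), and the submitters' processing notes name cutadapt, HISAT2 and the BDGP6/dm6 builds, without versions. Polyadenylated RNA was made into libraries with a kit that does not mark strand, per the labels' protocols. Symbols and coordinates come from the Ensembl release 115 annotation of BDGP6. The P450 members and the gene lists were chosen with earlier results of these data known. Genotypes were compared within each tissue, tissues within each genotype, and the genotype changes between tissues over all 12 libraries, with edgeR 4.0.16 (R 4.3.3): filterByExpr, TMM factors, quasi-likelihood F test and Benjamini-Hochberg adjustment over all genes tested, at 0.05. The SE is the absolute log2 change divided by the square root of F. CPM was scaled within a tissue for genotype comparisons. RPKM was scaled over 12 libraries and divided by union exon length for levels. A group with no count was set to 3 counts over the group, which covers counting error only. The rule for named genes took those past the threshold for genotype or its difference between tissues, the 5 highest per group, and the 5 largest tissue differences each way. Other P450 genes named were chosen after their values were seen. Alternatives were other scaling factors, no low-count filter, DESeq2 1.42.0, a block for the replicate number, 1 fit of all 12 libraries, and leaving out each library. The models were tested on simulated data. The result of the heme gene list in discs is not reported here.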

Additional observations from a re-analysis of the deposited data

Results flagged for a closer look

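For 8 P450 genes the change between mutant-labelled and control libraries differed between discs and glands at an adjusted p under 0.05 (interaction term in edgeR), which is why they are listed here. As the disc change minus the gland change on the log2 scale, the difference was 5.92 for Cyp6a23, 1.44 for Cyp6v1 and 6.01 for Cyp6a2. It was -2.0 for Cyp6d2, -1.88 for Cyp12c1, -4.88 for Cyp12d1-p, -5.50 for Cyp4ad1 and -12.22 for Cyp4p2. The values of Cyp6a2 and Cyp4p2 involve groups with no count and depend on the prior count of the fit. Cyp12d1-p, Cyp6a23, Cyp6d2 and Cyp6v1 were past the threshold in each of the 12 refits without 1 library. Cyp12d1-p, Cyp4ad1, Cyp4p2 and Cyp6a2 were too low in discs to be tested there, and the antisense gene nsr, which overlaps Cyp6d2, had a difference of -2.41. That of asRNA:CR45466, which overlaps part of Cyp6v1, was 1.67 and did not pass.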

How the results depend on the processing

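Among the P450 genes past the threshold in glands, in discs or for the difference between tissues, and the 10 largest tissue differences of each genotype, none changed its direction under the settings run. In glands 23 P450 genes were past the threshold, and without 1 library the count ran from 11 to 25. In discs 11 were past it, 8 to 10 without 1 library and 7 with all 12 libraries fitted together. For the difference between tissues 8 were past it, 15 with DESeq2 and 4 to 10 without 1 library, with 4 without control disc library 3. Between tissues the count was 46 in mutant-labelled larvae (42 to 50 without 1 library) and 39 in control larvae (39 to 44 without 1 library). The cause of these shifts was not tested, apart from the smaller number of libraries. Low P450 levels in discs left 49 of the 84 genes untested there, and gland libraries varied more (biological coefficient of variation 0.292 in glands and 0.102 in discs).

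The replicate numbers shared between groups were not stated to pair the libraries, so the main fits used no block. Deviations from group means in same-numbered libraries had correlations of 0.00853, 0.363 and 0.382 in glands and 0.120, -0.0687 and 0.150 in discs. These values do not decide whether the libraries were paired. With the replicate block the counts were 23 in glands, 11 in discs, 8 for the difference between tissues, 45 between tissues in mutant-labelled larvae and 39 in control larvae. The genes were not all the same: in glands the block lost Cyp313b1 (adjusted p = 0.0662) and gained Cyp6d5 (0.00372), and for the difference it lost Cyp6a2 (0.0915) and gained Cyp4p1 (0.0248).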

Other observations

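Control disc library 3 stood apart from control disc libraries 1 and 2 in spok, phtm and sad. These encode enzymes of ecdysone synthesis, whose usual site is the prothoracic gland. The P450 gene spok had 3.83 CPM in control disc library 3, against 0.0893 and 0 CPM in control disc libraries 1 and 2. For phtm the value was 9.04 CPM in that library, against 1.25 and 1.30 CPM in the other control disc libraries, and for sad it was 7.48 CPM, against 2.77 and 3.10 CPM. Mutant-labelled discs had 6.08, 4.81 and 7.10 CPM of sad, so for sad control disc library 3 lay near them. They had 0.219, 0.142 and 0.169 CPM of spok and 1.75, 2.78 and 1.86 CPM of phtm. The other enzymes of the list that were found did not stand apart in this way. In control disc libraries 1, 2 and 3, spo had 1.92, 2.20 and 1.82 CPM and dib had 8.66, 9.82 and 11.5 CPM. In the same order shd had 2.19, 2.55 and 3.06 CPM and sro had 4.96, 3.81 and 5.07 CPM. Cyp4p2 had 6 counts in that library and none in any other disc library.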
